A study of Mus musculus with 4 samples.

Results

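The genes described here encode synaptotagmins, SNARE proteins with their syntaxin-binding partners, and Rab GTPases, read in GFP-sorted cells of the mouse neural tube at E10.5 (embryonic day). They were found by gene symbol (Syt, Stx, Stxbp, Vamp, Snap or Rab followed by a number), with 1 probe set per gene, the one with the highest mean over the 4 arrays. This gave 106 of the 18193 genes with a probe set of a single symbol: 59 Rab, 16 synaptotagmin, 14 syntaxin, 7 Vamp, 5 Snap and 5 syntaxin-binding protein genes. Of these, 89 passed the filter on dim signals and are among the 12751 genes tested.

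Of the arrays, 2 hold sorted cells from Atoh1-GFP embryos, from a line the labels call Atoh1BAC-GFP, a bacterial artificial chromosome reporter of Atoh1, the factor of the cells that form dorsal interneuron 1 (dI1). The other 2 hold sorted cells from dNeurog1-GFP embryos, a reporter of Neurog1, a factor of the cells that form dorsal interneuron 2 (dI2). Both lines are transgenic reporters on a mixed background of the B6SJLF1 and ICR strains, and tissue of both was dissected between the limb levels and dissociated with trypsin. The labels say that cells were sorted by GFP but do not say outright that these arrays hold the GFP-positive fraction, and they are read here as such. The design text calls the 2 arrays of a group biological replicates. The labels name no embryo number per array, so p-values measure the spread between these arrays, whatever its source.

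Membrane fusion in cells is carried out by SNARE proteins, with a Vamp protein on the vesicle and a syntaxin and a Snap25-type protein on the target membrane. Synaptotagmins are vesicle proteins with C2 domains, several of which bind calcium and trigger release of transmitter. Rab proteins are small GTPases that mark compartments and recruit the proteins that move and tether vesicles. Rab3 proteins sit on synaptic and secretory vesicles, and Rab15 is a Rab of early and recycling endosomes that is best known from neural tissue. At this stage dI1 and dI2 cells leave the cell cycle and grow axons, before most of their synapses form.

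Signals are MAS5 intensities in arbitrary units, rescaled here so that the arrays share one trimmed mean. A difference is the Atoh1-GFP value less the dNeurog1-GFP value in log2(signal + 32), which understates the change of dim genes. The threshold is a Benjamini-Hochberg adjusted p under 0.05 over all 12751 genes in limma's moderated test. As deposited, both replicate 1 arrays had a trimmed mean of 250.001 and both replicate 2 arrays one of 500.003, so the replicate number marks a difference in processing. Results are therefore given without the replicate number in the model, with it as a block, and within each replicate number. Over all genes 21 passed without the block (0.165%), of which 11 were higher in Atoh1-GFP cells (0.0863%) and 10 lower (0.0784%), and 843 with it (6.61%, 360 higher and 483 lower). On the signals as deposited the split without the block was 1 higher and 12 lower, and after quantile normalization it was 17 and 9. The block leaves 1 residual degree of freedom per gene, so its p-values rest largely on the spread shared across genes. After scaling, the lower quartile of signals was 42.4 and 34.3 on the replicate 1 arrays and 17.6 and 17.4 on the replicate 2 arrays. The dim end of the scale thus stood higher on the replicate 1 arrays.

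The arrays carried the markers of their labels. All 5 dI1 markers were higher in Atoh1-GFP cells with the block (median difference 3.14) and 4 of 5 dI2 markers lower (median -3.06). In a bulk sample fewer cells of a type and less RNA per cell cannot be told apart. The neuron list had a median difference of 0.51, with 5 of its 15 tested members higher and 1 lower with the block. Its summed signal was 88632 and 93824 on the Atoh1-GFP arrays, against 55454 and 75681 on the dNeurog1-GFP arrays. Of 14 markers of dividing progenitors 8 were lower with the block, 0 higher and 6 not called (median -0.85), with summed signals of 57833 and 54560 against 97208 and 78229. The lowest signal in these lists was 79.3, for Lhx5 on the Atoh1-GFP replicate 2 array, above that array's lower quartile. The part of these differences in the vesicle and Rab genes below was not tested.

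Rab15 had the largest difference of the family. It was read by 1 probe set, with signals of 2963 and 2677 on the Atoh1-GFP arrays, against 787 and 541 on the dNeurog1-GFP arrays. Both Atoh1-GFP arrays were thus far above both dNeurog1-GFP arrays, by 3.76-fold within replicate 1 and 4.95-fold within replicate 2. On the log2 scale this was 2.06 on average, from 1.87 in replicate 1 and 2.24 in replicate 2. Without the block it missed the threshold narrowly (standard error 0.26, limma adjusted p = 0.052), and with the block it passed (standard error 0.14, adjusted p = 0.0029). Leaving out any single array, without the block, gave differences from 1.80 (without dNeurog1-GFP replicate 2) to 2.31 (without dNeurog1-GFP replicate 1). In these fits the lone array of a group is assumed to vary like the other group, so no p-value is given for them. They also leave the replicate numbers unbalanced between the groups. It was the only member that was higher by 2-fold or more under both replicate numbers, and 1.11% of all genes tested met that rule. No member was 2-fold lower by the same rule, which 1.18% of all genes met. Over all genes tested 22 had a larger difference toward Atoh1-GFP cells.

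**Figure D1:**
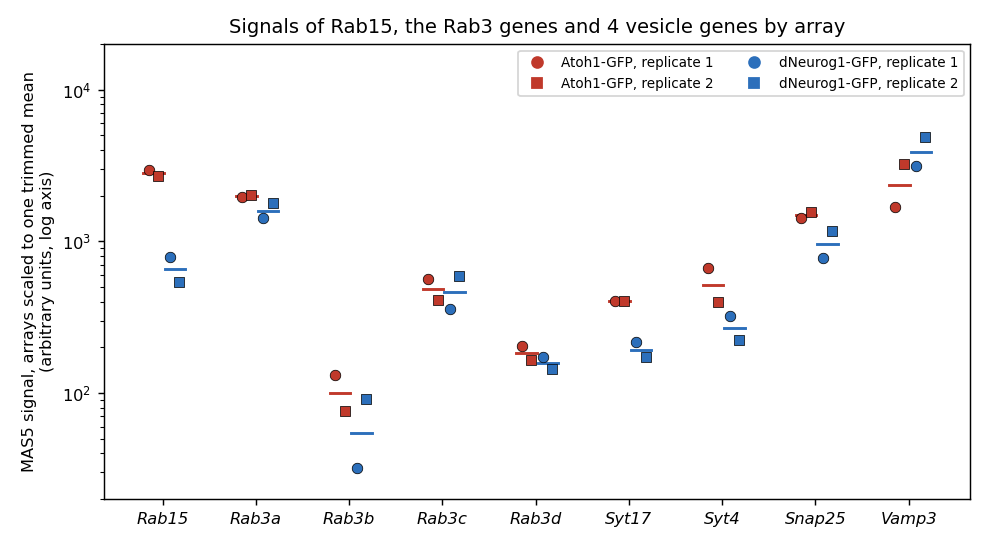
Signal of each array on a log axis (MAS5 units after scaling every array to one trimmed mean) for Rab15, the Rab3 genes and Syt17, Syt4, Snap25 and Vamp3, with Atoh1-GFP in red, dNeurog1-GFP in blue, circles for replicate 1, squares for replicate 2 and bars at each group's geometric mean. Rab15 stands at 2963 and 2677 in Atoh1-GFP cells against 787 and 541 in dNeurog1-GFP cells, whereas the Rab3b and Rab3c arrays overlap between the groups.

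The promoter windows of Rab15 and of a pair of Rab3 genes are shown because these genes were read in detail. Atoh1 and Neurog1 are basic helix-loop-helix factors, a class known to bind the E-box CANNTG. Each window runs from 250 bases before the annotated start site furthest upstream to 50 after it, from RefSeq on GRCm38.p6, 5′ to 3′ on the gene's strand, with every CANNTG in capitals. The windows are chr12:76822475-76822774 on the minus strand for Rab15, chr8:70754453-70754752 on the plus strand for Rab3a and chr13:110280157-110280456 on the minus strand for Rab3c.
Rab15: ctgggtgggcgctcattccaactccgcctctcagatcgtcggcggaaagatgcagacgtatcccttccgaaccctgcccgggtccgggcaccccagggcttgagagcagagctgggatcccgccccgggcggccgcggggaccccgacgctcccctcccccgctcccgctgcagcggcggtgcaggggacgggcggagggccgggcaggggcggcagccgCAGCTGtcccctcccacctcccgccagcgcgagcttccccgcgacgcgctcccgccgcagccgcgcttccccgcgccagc
Rab3a: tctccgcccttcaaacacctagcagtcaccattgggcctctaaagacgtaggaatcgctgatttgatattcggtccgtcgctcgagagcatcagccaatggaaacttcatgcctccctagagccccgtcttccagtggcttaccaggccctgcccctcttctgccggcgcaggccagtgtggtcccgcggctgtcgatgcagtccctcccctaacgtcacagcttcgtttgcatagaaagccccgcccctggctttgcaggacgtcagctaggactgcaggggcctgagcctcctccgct
Rab3c: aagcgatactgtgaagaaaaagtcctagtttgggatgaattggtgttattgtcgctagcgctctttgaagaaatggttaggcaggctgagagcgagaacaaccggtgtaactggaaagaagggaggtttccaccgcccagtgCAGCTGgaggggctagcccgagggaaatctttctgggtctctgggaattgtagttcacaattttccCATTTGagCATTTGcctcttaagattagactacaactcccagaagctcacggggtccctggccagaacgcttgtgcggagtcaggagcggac

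The Rab15 window has a GC content of 76.3% and holds 1 CANNTG, in the form CAGCTG, whose first base lies 30 bases before the start site. Rab3a has none in this window, but the window of its further start site holds 3, of which 1 is CAGCTG. Rab3c, whose arrays overlap, has 3, of which 1 is also CAGCTG. Of the Rab3 genes not printed, Rab3b has 1 CANNTG in its window and Rab3d has 0. Searched on both strands, which for CANNTG read the same, the motif was in 72.1% of 27025 promoter windows and in 60 of the 85 members with a window. CAGCTG, which is contained in CANNTG, was in 16.1% of all and in 22 of the 85 (25.9%). Another form, CAGATG or its complement CATCTG, was in 17.3% of all and in 9 of the 85 (10.6%). Rab15 has 3 further annotated start sites downstream, whose windows hold 2 CANNTG each, 1 of them a CAGATG in the window next to the first. A match is a description of the sequence only.

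The nearest tested genes beside Rab15 in the RefSeq order did not pass the threshold. Genes that were not tested were passed over. On one side Churc1 differed by 0.27 (adjusted p = 0.30 with the block) and Sptb by 0.68 (adjusted p = 0.17). On the other side Fntb differed by -0.07 (adjusted p = 0.87) and Max by 0.50 (adjusted p = 0.29).

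None of the Rab3 genes, which encode the Rab proteins of synaptic and secretory vesicles, passed the threshold in either model. Rab3a gave signals of 1972 and 2019 on the Atoh1-GFP arrays, against 1419 and 1779 on the dNeurog1-GFP arrays. On this probe set the arrays did not overlap, and the difference was 0.32 (0.47 within replicate 1 and 0.18 within replicate 2, adjusted p = 0.21 with the block). It carries the suffix by which Affymetrix marks possible cross-hybridization. A second Rab3a probe set, without that suffix, gave signals of 364 and 426 against 185 and 403, which overlap. Its difference of 0.47 lay almost wholly in replicate 1 (0.87, against 0.07). Rab3d gave signals of 205 and 164 against 171 and 144, which overlap, and a difference of 0.19 (adjusted p = 0.68 with the block). A Rab3d probe set of similar brightness gave 266 and 149 against 135 and 123, which do not overlap, and a difference of 0.53 (0.83 and 0.22, adjusted p = 0.29 with the block). Another differed by -0.02.

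The other Rab3 genes went opposite ways within the replicate numbers. Rab3c gave signals of 566 and 412 on the Atoh1-GFP arrays, against 360 and 587 on the dNeurog1-GFP arrays. It was thus higher in Atoh1-GFP cells within replicate 1 (0.61) and lower within replicate 2 (-0.48), with a mean of 0.06. Its other probe sets above the filter gave 0.04 and -0.06, and 0.74 and -0.03, without so large a fall in replicate 2. Rab3b, the dimmest of the Rab3 genes, gave signals of 131 and 76.2 against 32.1 and 91.7, with 1.35 within replicate 1 and -0.19 within replicate 2. Its signal on the dNeurog1-GFP replicate 1 array was below that array's lower quartile. The median difference of the Rab3 genes was 0.54 within replicate 1 and -0.02 within replicate 2, whereas Rab15 had 1.87 and 2.24. Whether Rab15 differs from the Rab3 genes in its response was not tested.

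Over the whole family, limma called 0 of the 89 members without the block, and 3 had an unadjusted p under 0.05 (8.65% of all genes did). With the block 16 members had an unadjusted p under 0.05 (22.6% of all genes did) and 4 passed after adjustment, or 4.49%, beside 6.61% of all genes: 3 were higher (2.82% of all genes were) and 1 was lower in Atoh1-GFP cells (3.79% of all genes were). By direction these were 3.37% of the members called higher and 1.12% called lower. A difference from the shares of all genes was not tested. The higher ones were Rab15, Syt17 and Syt4, and the lower one was Vamp3. Without the filter on dim signals 1 member, Rab15, passed with the block. After quantile normalization 8 did, adding Rab2a, Rab2b, Stx7 and Snap25. The median difference of the 89 members was 0.09, beside 0.00 for all genes. Of them 54 lay within 0.25 of 0, and 54.6% of all genes tested did.

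Direction was read within each replicate number as well. Of the 89 members, 40 were higher on the Atoh1-GFP array under both replicate numbers (44.9%, beside 33.3% of all genes), 17 were lower within both (beside 33.8%) and 32 went opposite ways (beside 33.0%). Both Atoh1-GFP arrays were above both dNeurog1-GFP arrays for 16 members (beside 16.1% of all genes) and below them for 6 (beside 19.0%). Vamp3, although called with the block, is not among those 6, since its Atoh1-GFP replicate 2 signal exceeds its dNeurog1-GFP replicate 1 signal. As a description over genes, which share arrays and are not independent, the replicate 1 and replicate 2 differences had a Pearson r of 0.40 over the 89 members, 0.25 over the 88 without Rab15 and 0.55 over all 12751 genes.

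**Figure D2:**
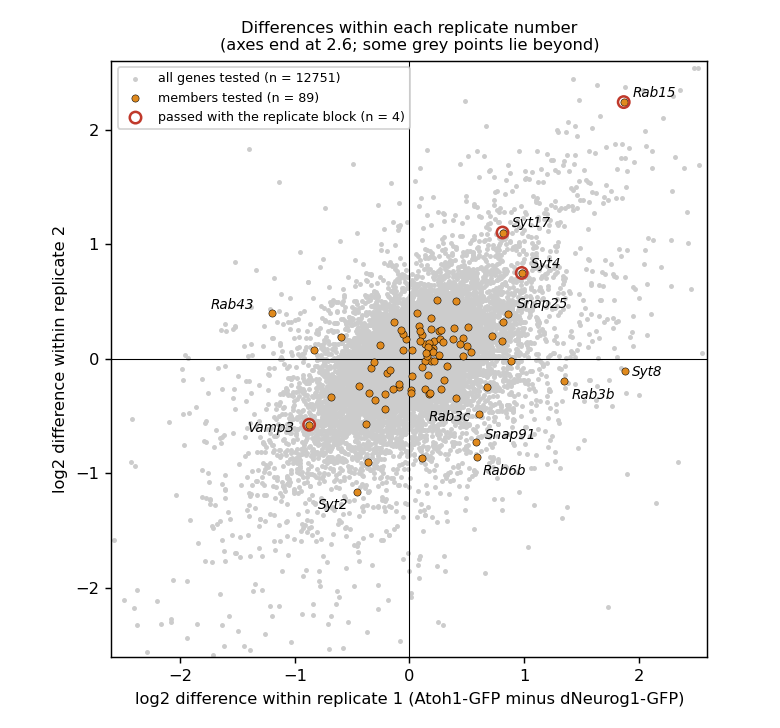
Log2 difference (Atoh1-GFP minus dNeurog1-GFP) within replicate 1 on the horizontal axis and within replicate 2 on the vertical axis, for all 12751 genes tested in grey and the 89 members in orange, with red rings around the 4 members that passed with the replicate block. Rab15 lies alone among the members at 1.87 and 2.24, and Syt8, Rab3b, Rab6b, Snap91 and Rab3c lie right of 0 and below it.

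The synaptotagmins included both other members called higher. Syt17, a synaptotagmin-like protein with C2 domains, gave signals of 406 and 405 on the Atoh1-GFP arrays, against 218 and 172 on the dNeurog1-GFP arrays. The groups did not overlap, and the difference was 0.96 (0.81 in replicate 1 and 1.10 in replicate 2, adjusted p = 0.30 without and 0.048 with the block). Syt4, a synaptotagmin of dense-core and other neuronal vesicles whose calcium binding is reduced, gave signals of 663 and 399 against 320 and 225. Its difference was 0.86 (0.98 and 0.75, adjusted p = 0.50 without and 0.048 with the block). A second Syt4 probe set differed by 0.82 (0.72 and 0.93) and lay just outside the threshold (adjusted p = 0.070 with the block). Both calls sit close to the threshold. Leaving out 1 array moved Syt4 from 0.52 (without Atoh1-GFP replicate 1) to 1.21 (without Atoh1-GFP replicate 2) and Syt17 from 0.81 to 1.10. These fits have no block and leave the replicate numbers unbalanced between the groups.

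Other synaptotagmins did not pass in either model. Syt8 was higher by 0.89 on average, but its signals of 170 and 53.7 against 22.9 and 60.2 placed that difference wholly in replicate 1 (1.88, against -0.11). The Syt8 signal of 22.9 on the dNeurog1-GFP replicate 1 array was below that array's lower quartile (34.3). Syt1, the main calcium sensor of fast release, gave signals of 695 and 790 on the Atoh1-GFP arrays, against 469 and 756 on the dNeurog1-GFP arrays, with a difference of 0.30 (0.54 and 0.06, adjusted p = 0.38 with the block). Syt11, which does not bind calcium, had 7510 and 7592 against 5535 and 6920, a difference of 0.29 (adjusted p = 0.26), while its other probe sets differed by -0.02 to 0.18.

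Among the calcium-binding synaptotagmins, Syt2 and Syt9 went the other way. Syt2 gave signals of 74.5 and 46.8 on the Atoh1-GFP arrays, against 114 and 145 on the dNeurog1-GFP arrays, a difference of -0.81 (-0.46 within replicate 1 and -1.17 within replicate 2, adjusted p = 0.18 with the block). Syt9 had 125 and 70.0 against 170 and 159, a difference of -0.63 (-0.36 and -0.90, adjusted p = 0.23). Neither gene overlapped between the groups, and neither passed. The median over the 5 tested calcium sensors was -0.07 and over the 6 other synaptotagmins 0.58. For the latter it was 0.74 in replicate 1 and 0.04 in replicate 2, so most of it lay in replicate 1, and the difference between these lists was not tested.

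Of the SNAREs, Vamp3 was the member called lower. Vamp3, also known as cellubrevin, is the vesicle SNARE of recycling endosomes in most cell types. Its brightest probe set gave signals of 1687 and 3250 on the Atoh1-GFP arrays, against 3121 and 4858 on the dNeurog1-GFP arrays. It was lower within both replicate numbers, and the difference was -0.73 (-0.88 and -0.58, adjusted p = 0.71 without and 0.029 with the block). That probe set carries the suffix by which Affymetrix marks possible cross-hybridization. The next probe set, without that suffix, had 2121 and 2589 against 3497 and 3873, which did not overlap, and a difference of -0.64 (-0.71 and -0.58, adjusted p = 0.42 without and 0.030 with the block). Another gave -0.65 (adjusted p = 0.048 with the block), while the dimmest of the 5 gave -0.31 and the next dimmest -0.06. The 3 brighter probe sets thus gave lower mean signals in Atoh1-GFP cells. Without the block, the brightest probe set differed by -0.26 without Atoh1-GFP replicate 1 and -0.41 without dNeurog1-GFP replicate 2. It differed by -1.04 without dNeurog1-GFP replicate 1 and -1.19 without Atoh1-GFP replicate 2. These fits leave the replicate numbers unbalanced between the groups, and in both groups this probe set read brighter on the replicate 2 array. The shifts thus mix the replicate number with the array left out.

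No other Vamp gene passed. Vamp2, the vesicle SNARE of synaptic vesicles, had a difference of 0.10 (0.15 within replicate 1 and 0.05 within replicate 2). Vamp1, its close relative, had -0.38 (-0.83 and 0.08), and Vamp8, an endosomal SNARE, 0.43 (0.89 and -0.02). Both of these went opposite ways within the replicate numbers.

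The Snap25 family showed opposite differences that did not pass in either model. Snap25, the target-membrane SNARE of neurons, gave signals of 1434 and 1554 on the Atoh1-GFP arrays, against 776 and 1175 on the dNeurog1-GFP arrays. The groups did not overlap, and the difference was 0.63 (0.86 within replicate 1 and 0.39 within replicate 2, adjusted p = 0.074 with the block). Snap23, its relative in non-neuronal cells, had 901 and 761 against 1181 and 1145, a difference of -0.47 (-0.38 and -0.57, adjusted p = 0.11). Snap47 had 0.01. Snap91, a clathrin assembly protein that shares only the symbol, gave signals of 1310 and 691 against 866 and 1166, that is 0.58 within replicate 1 and -0.73 within replicate 2.

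No syntaxin passed in either model, and 6 of the 13 tested were higher on the Atoh1-GFP array under both replicate numbers (beside 33.3% of all genes). Stx7, a syntaxin of late endosomes, had the largest difference, 0.57 (0.81 within replicate 1 and 0.32 within replicate 2, adjusted p = 0.090 with the block). It read 2565 and 1701 on the Atoh1-GFP arrays, against 1444 and 1353 on the dNeurog1-GFP arrays, without overlap. Stx1a, the syntaxin of the presynaptic membrane, had 666 and 1220 against 461 and 1127, a difference of 0.31 (0.50 and 0.11, adjusted p = 0.32). Stx6 of the trans-Golgi had a difference of 0.09. Of the 5 syntaxin-binding proteins, 3 were lower within both replicate numbers (beside 33.8% of all genes) and none passed. Stxbp6, also called amisyn, gave signals of 606 and 563 against 995 and 716, a difference of -0.51 (adjusted p = 0.13 with the block). Stxbp5, also called tomosyn, had 0.48 (0.80 and 0.15, adjusted p = 0.31), Stxbp2, a Munc18 protein of non-neuronal secretion, -0.34 and Stxbp4 0.09.

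Apart from Rab15, the 48 other tested Rab genes had no call in either model. Beside the Rab3 genes, the largest differences were those of Rab33a (0.46), a Golgi-related Rab of neurons and immune cells, Rab2b (0.46), Rab39b (0.40), a neuronal Rab, and Rab2a (0.37), with adjusted p from 0.098 to 0.20 with the block. Rab2a and Rab2b, Rabs of traffic between the endoplasmic reticulum and the Golgi, were higher on the Atoh1-GFP array under both replicate numbers, Rab2a by 0.24 and 0.51 and Rab2b by 0.40 and 0.51. A dimmer Rab2a probe set passed with the block at 0.63 (adjusted p = 0.031). Another differed by 0.45, and the remaining 3 by -0.03 to 0.10. On the lower side Rab43 had -0.40 and Rab30 -0.38, each with opposite directions within the replicate numbers. A dimmer Rab30 probe set differed by -0.91 and was lower within both (-1.19 and -0.62, adjusted p = 0.13 with the block). The other Rab43 probe sets above the filter differed by 0.09 and 0.24.

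The housekeeping Rabs lay close to 0. Rab1a of the early secretory pathway had a difference of 0.16, with signals of 10357 and 12507 on the Atoh1-GFP arrays, against 9599 and 10811 on the dNeurog1-GFP arrays. Rab7 of late endosomes had 0.15, Rab14 of endosomes and Golgi 0.15, Rab10 of exocytic traffic 0.01 and Rab24 -0.13. The 12 tested Rab genes of early and recycling endosomes besides Rab15 ranged from -0.32 to 0.33, with a median of 0.09. None of these 12 Rab genes passed the threshold in either model. Rab27b, the one Rab of regulated secretion besides Rab3 that passed the filter, had 0.09. The 6 tested Rabs of exocytic and ciliary traffic ranged from -0.26 to 0.06, and 4 of them were lower within both replicate numbers (beside 33.8% of all genes).

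**Figure D3:**
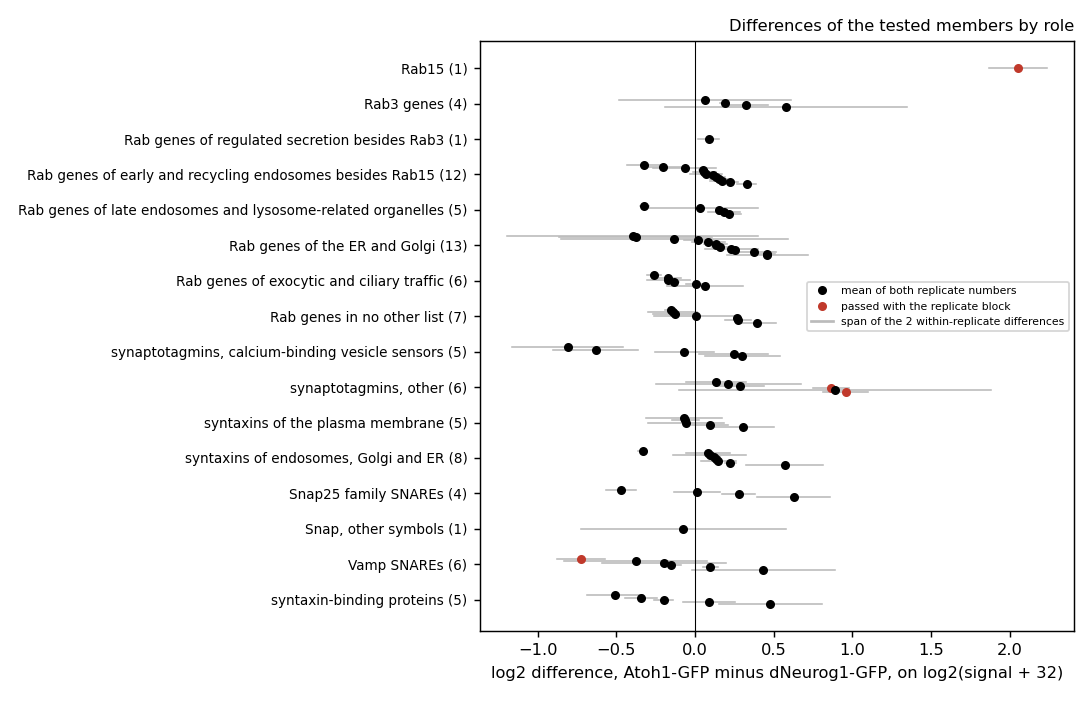
Mean log2 difference (Atoh1-GFP minus dNeurog1-GFP) of each tested member, grouped by role with the number of genes in brackets; grey lines join the differences within the 2 replicate numbers, and red marks members that passed with the replicate block. Rab15 lies at 2.06, the other Rab genes at or below 0.58, and Vamp3 is the red point left of 0.

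The 17 members below the filter were Syt3, Syt6, Syt10, Syt12, Syt16, Stx19, Vamp5, Rab7b, Rab17, Rab19, Rab20, Rab25, Rab26, Rab27a, Rab37, Rab42 and Rab44. Their highest signal on any array was 118, for Rab27a on the Atoh1-GFP replicate 1 array. Dim signals have little order on these arrays, and no difference is drawn from them.

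The signed difference of many members stood higher within replicate 1. Of the 89 members, 60 had a higher signed difference within replicate 1 than within replicate 2, and 50.1% of all genes did. This count includes members lower in Atoh1-GFP cells within both, such as Syt2 (-0.46 and -1.17). A difference over 0.5 within replicate 1 together with one under 0 within replicate 2 was seen in 7 members and in 3.63% of all genes. The reverse, under 0 and over 0.5, was seen in 0 members. Its share over all genes was not computed, so the 2 patterns are not compared. The 7 were Rab3b, Rab3c, Rab6b, Snap91, Syt8, Syt13 and Vamp8, chosen after their values were seen. Rab6b, a neuronal Golgi Rab, gave signals of 1191 and 700 on the Atoh1-GFP arrays, against 779 and 1291 on the dNeurog1-GFP arrays (0.59 and -0.85). Its other probe sets above the filter gave 0.56 and 0.06, and 1.04 and -0.10, without so large a fall in replicate 2. Syt13 had 505 and 218 against 305 and 265 (0.67 and -0.25). The neuron list moved alike, its median being 0.71 in replicate 1 and 0.32 in replicate 2, while progenitor markers had -0.89 and -0.84. Ventral neural tube markers had 0.01 and -2.08 over 9 genes, with summed signals of 1027 and 627 on the Atoh1-GFP arrays, against 963 and 2617 on the dNeurog1-GFP arrays. Sensory ganglion and neural crest markers had 0.28 and -1.32 over 7 genes (3144 and 3765 against 3971 and 9505). On the dNeurog1-GFP replicate 2 array most of that sum was Isl1 (5163) and Pou4f1 (2119). The others read from 291 (Sox10) to 647 (Ret), and Foxd3 among them is also listed as a dI2 marker. The sum is thus not a measure of crest or ganglion cells alone. Mesenchyme markers had 1.04 and -0.34 over 8 genes (6519 and 4460 against 3005 and 7085). Blood markers had 1.64 and 0.62 over 6 genes (31057 and 32124 against 8133 and 23106), endothelial markers 1.05 and 0.26 over 5 genes (1547 and 570 against 573 and 463), and heart muscle markers 1.34 and 1.20 over 7 genes (2001 and 4222 against 467 and 2164). Some of these markers were dim. Olig2 read 3.8 and 7.4 on the Atoh1-GFP arrays and Sox10 6.8 on the dNeurog1-GFP replicate 1 array, each below the lower quartile of its array. The part of these cell types in the uneven members was not tested.

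**Figure D4:**
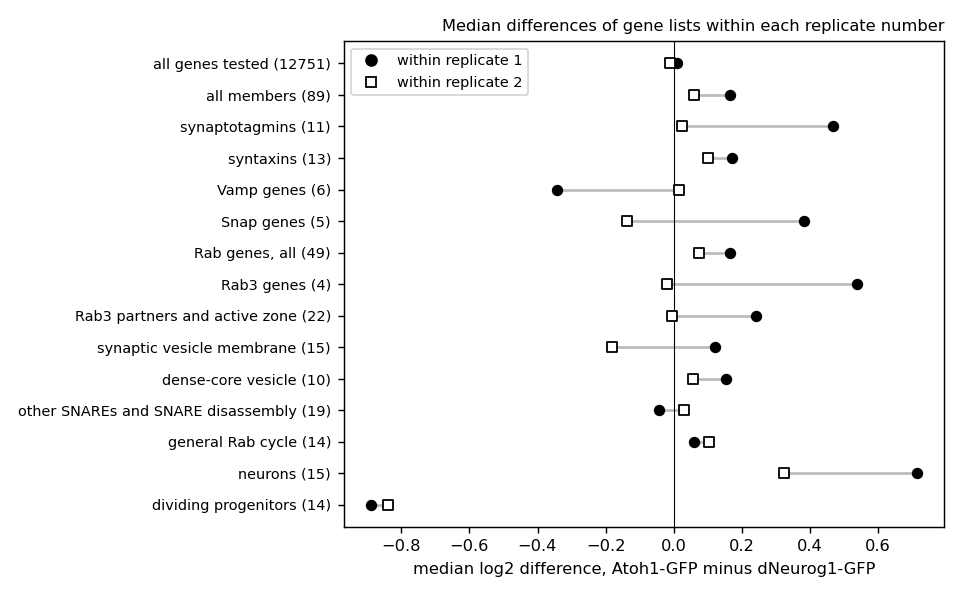
Median log2 difference (Atoh1-GFP minus dNeurog1-GFP) of each gene list within replicate 1 (filled circles) and within replicate 2 (open squares), with the number of tested genes in brackets. The Rab3 genes move from 0.54 to -0.02 and the neuron markers from 0.71 to 0.32, while the dividing progenitor markers stay at -0.89 and -0.84.

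The calls among other genes of vesicle release are read beside 6.61% of all genes called with the block, 2.82% higher and 3.79% lower. Of 22 tested Rab3 partners and active zone genes 1 passed with the block and 0 without it (median 0.08, 0.24 within replicate 1 and -0.00 within replicate 2). It was Bsn, which encodes the active zone scaffold bassoon, with signals of 369 and 502 on the Atoh1-GFP arrays, against 157 and 240 on the dNeurog1-GFP arrays and a difference of 1.03 (adjusted p = 0.036 with the block). Of 15 genes of the synaptic vesicle membrane none passed in either model (median 0.03). Synaptophysin, Syp, had a difference of 0.05.

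Dense-core vesicle genes went both ways, with 2 of 10 higher (beside 2.82% of all genes) and 1 lower (beside 3.79%) with the block. Scg5 (0.77, adjusted p = 0.039) and Scg3 (0.54, adjusted p = 0.044), granins or granin-binding proteins of secretory granules, were higher in Atoh1-GFP cells. Pam, the enzyme that amidates neuropeptides, was lower, with signals of 296 and 266 against 728 and 732 and a difference of -1.29 (adjusted p = 0.014). Of 19 genes listed as other SNAREs, SNARE disassembly factors or related proteins, 1 was higher with the block (beside 2.82% of all genes). It was the taxilin Txlnb (0.92, adjusted p = 0.050, just under the threshold), which is not itself a SNARE. Nsf, the ATPase that takes SNARE complexes apart, had -0.33 and did not pass. Of 14 genes of the general Rab cycle 1 was lower (beside 3.79% of all genes), Rabggtb (-0.64, adjusted p = 0.038), a subunit of the enzyme that attaches the lipid anchor to Rab proteins. Without the block no gene of these lists was called.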

How the data were processed

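The deposited values are linear signal intensities of 4 Affymetrix arrays, made by the authors with MAS5, per the submitters' processing notes. No label states its version or target. Trimmed means leave out 2% at each end over 45101 probe sets. Each array was rescaled to one trimmed mean of about that of the replicate 2 arrays (500.003), because the replicate numbers carried different targets. The 64 control probe sets were left out, and genes with a mean deposited signal under the 40th percentile (42.45) were not tested. Of the other 45037 probe sets 34945 had 1 platform symbol, 932 several (1 of them of a member gene) and 9160 none; all 106 members matched the RefSeq table with the same symbol. limma 3.58.1 (lmFit, eBayes with trend; R 4.3.3) was run on log2(signal + 32) in a model of group alone and in one that adds replicate number, and checked on simulated data. The number of arrays limits the precision. The genes named were Rab15, the Rab3 genes, members called in either model, the largest differences up to 25 members, the brightest member of each role, and called genes of other lists. Vamp2, Rab6b, Syt13, Syp, Nsf and the nearest tested genes beside Rab15 were added. The members and lists were chosen with earlier results of these data known.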

Additional observations from a re-analysis of the deposited data

How the results depend on the processing

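Rab15 kept its direction under every alternative run. Without the block, all genes called were 21 in the main setting, 13 on deposited signals, 15 after 75th percentile scaling, 26 after quantile normalization, 20 at a pseudocount of 8 and 21 at the largest tried, and 14 without the filter; 0 members were called in each. Under the replicate block 843 genes and 4 members passed. The block with deposited signals gave 1169 and 5, with quantile normalization 1661 and 8, with pseudocount 8 939 and 4, with the largest pseudocount 900 and 4, and with no filter 353 and 1. Rab15 then passed at 2.06, and at 2.04, 2.06, 2.10, 1.91 and 2.06 in that order. Leaving out 1 array without the block gave 151 to 369 genes, 1 to 2 members, and a Rab15 difference of 1.80 to 2.31; the cause was not tested. Same-numbered arrays deviated together from their group means (r = 0.64 over 12751 genes), but with 2 numbers this does not establish pairing by animal or day. Leaving out an array together with the block leaves no residual degrees of freedom and was not run.

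Leaving out 1 array also moved Snap25 from 0.34 to 0.92 and Rab3a from 0.16 to 0.48. These fits, and those of the leave-one-out ranges below, leave the replicate numbers unbalanced between the groups. Members near 0 changed sign. Rab10 (-0.0139) and Snap47 (-0.0104) did after 75th percentile scaling, and Rab27b (-0.0261) after quantile normalization, also with the replicate block (-0.0261). Leave-one-out ranges that cross 0 were -0.27 to 0.39 for Rab3c, -0.0222 to 0.98 for Stxbp5, -1.09 to 0.30 for Rab43, -0.76 to 0.0034 for Rab30, -0.52 to 0.27 for Rab24, -0.18 to 0.48 for Rab14, -0.0627 to 0.0799 for Rab10, -0.37 to 0.54 for Rab27b, -0.52 to 0.37 for Snap91, -0.39 to 0.41 for Snap47, -0.0285 to 0.63 for Syt1, -0.0885 to 0.27 for Stxbp4, -0.61 to 0.80 for Stx6 and -0.31 to 0.92 for Stx1a. Of 56 other probe sets of the named members 11 had the opposite sign to the brightest: Rab3c (-0.0123), Rab3d (-0.0213), Stxbp5 (-0.30), Rab43 (0.0928 and 0.24), Rab2a (-0.0264), Stxbp2 (0.0721), Rab24 (0.0365), Snap47 (-0.19), Syt11 (-0.0181) and Stx6 (-0.0662).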
